A study of Mus musculus with 16 samples.

Results

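The insulin-like growth factor binding proteins (IGFBPs) are represented here by 7 mouse genes, Igfbp1 to Igfbp7, chosen by name and found through the array annotation. They are read by 16 probe sets out of 45101 on the array, and by 7 of 18195 entries when each gene is read by its brightest probe set. Igfbp4 has 6 probe sets, Igfbp7 has 3, Igfbp3 and Igfbp5 have 2 each, and Igfbp1, Igfbp2 and Igfbp6 have 1 each. All 7 genes entered every test, since no filter on low values was applied.

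The study profiled embryonic stem (ES) cells of a 129/B6 hybrid background with and without Rybp, a subunit of variant Polycomb repressive complexes, on Affymetrix arrays. The groups of arrays compared were these: Rybp-deficient (KO) cells at day 12, untreated control cells at day 12, KO cells at day 4 and untreated control cells at day 4, with 4 arrays in each of the 4 groups. Each group held 2 arrays of clone 15 and 2 of clone 10, numbered replicate 1 and replicate 2. KO cells had been exposed to 800 nM 4-hydroxytamoxifen (OHT) for 24 h to remove Rybp, and the control cells were the same clones without OHT, so effects of OHT or of the activated recombinase cannot be told apart from the loss of Rybp. The promoter that drives the recombinase is not given in the sources used here. The culture medium held serum and leukaemia inhibitory factor, and cells grew either on irradiated mouse embryonic fibroblast feeders or on gelatin, and the labels do not say which arrays had feeders. Nor do they say whether the replicates were separate cultures, so a p-value here is set against variation among arrays that may be only technical.

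IGFBPs are secreted proteins that hold the growth factors IGF1 and IGF2 outside the cell, prolong their stay in fluids and tissue, and limit their access to the IGF1 receptor. Proteases that cut an IGFBP release the growth factor again. IGFBP3 is the main IGF carrier of serum, where it forms a complex with the acid-labile subunit. IGFBP7 binds IGFs only weakly and is often grouped with the IGFBP-related proteins. Mouse ES cells respond to insulin and IGFs through the IGF1 and insulin receptors, and embryonic fibroblasts secrete several IGFBPs.

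Igfbp3 and Igfbp1 are neighbouring protein-coding genes on chromosome 11, and Igfbp2 and Igfbp5 are neighbours on chromosome 1. The promoters of Igfbp3 and Igfbp1 are shown because these neighbours were read differently: Igfbp3 was higher in KO cells, and Igfbp1 lay near the bottom of the array's intensity range. Both sequences are RefSeq's on GRCm38.p6, from 250 bases before to 50 bases after the annotated start, 5′ to 3′ on the gene's own strand, with every CG dinucleotide in capitals. Igfbp3 lies on the minus strand at chr11:7213874-7214173, and Igfbp1 on the plus strand at chr11:7197537-7197836.
Igfbp3: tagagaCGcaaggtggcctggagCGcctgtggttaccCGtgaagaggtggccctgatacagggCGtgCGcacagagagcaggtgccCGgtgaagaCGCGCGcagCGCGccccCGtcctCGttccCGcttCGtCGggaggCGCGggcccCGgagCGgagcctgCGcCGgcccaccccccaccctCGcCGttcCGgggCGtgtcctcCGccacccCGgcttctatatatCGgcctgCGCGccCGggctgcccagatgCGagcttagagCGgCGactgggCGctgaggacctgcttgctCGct
Igfbp1: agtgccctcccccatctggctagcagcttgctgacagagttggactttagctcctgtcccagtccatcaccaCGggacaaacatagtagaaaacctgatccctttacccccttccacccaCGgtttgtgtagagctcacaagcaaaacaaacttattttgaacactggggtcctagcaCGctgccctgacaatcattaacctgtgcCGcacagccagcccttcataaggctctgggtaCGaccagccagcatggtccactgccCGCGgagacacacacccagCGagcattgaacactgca
The Igfbp3 window holds 37 CG dinucleotides, more than 94.4% of 32851 RefSeq promoters of the same length, whose median is 7. The Igfbp1 window holds 8, more than 51.4% of them. Among the other members, matched by 6 further windows, CG counts were 33 for Igfbp7, 27 for Igfbp4, 18 and 14 for the 2 annotated starts of Igfbp2, 10 for Igfbp5 and 8 for Igfbp6. The hexamer TATAAA, searched on both strands, was found in the windows of Igfbp4 and Igfbp6 and in 13.6% of all promoters. The hexamer GGGCGG was found in 1 of the Igfbp2 windows and in that of Igfbp7, and in 35.7% of all promoters; each GGGCGG contains 1 of the counted CG dinucleotides. These are descriptions of letters in the windows, and no array value bears on binding there.

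The values are probe set intensities on a linear scale, normalized to 1 common distribution by the submitters, with a median of 93.3. An intensity below the 25th percentile of the table, 28.3, was treated as the floor, under which an order is not read. The arrays correlated with each other at r between 0.895 and 0.931 over all probe sets. Rybp probe set 1421111_at read 85 to 256 on KO arrays and 2047 to 3434 on control arrays, so by it every array matched its label. A further Rybp probe set, 1428219_at, ran the other way and read 2815 to 7612 on KO arrays. On control arrays it read 157 to 297 in clone 15 and 1404 to 2771 in clone 10, and the cause was not tested. All 20 ES cell markers had median intensities above the 75th percentile of the array. Of 10 defining fibroblast markers none did, 6 lay above the median, and decorin (Dcn) was under the floor on 9 of 16 arrays.

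Igfbp3 was higher in KO cells than in control cells at both days, and was the only member of the 7 to pass the test between KO and control cells. The other 6 members, among them the very bright Igfbp2 and the floor-level Igfbp1, did not pass at either day. No member passed the test between day 12 and day 4 or between the clones. At day 4, Igfbp4, Igfbp3, Igfbp2 and Igfbp7 were lower in replicate set 2 than in replicate set 1.

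Igfbp3 was read by 1423062_at at day 12 as 951 and 1034 in KO clone 15 (replicates 2 and 1) and 1438 and 1053 in KO clone 10, against 373 and 296 in control clone 15 and 361 and 360 in control clone 10. All 4 KO arrays lay above all 4 control arrays. The means were 1119 ± 217 in KO cells and 348 ± 34.7 in control cells (SD, n = 4 each). The difference was 1.67 ± 0.27 on the log2 scale (SE; 3.19-fold; limma with Benjamini-Hochberg adjustment over all genes, adjusted p = 0.00453). With 1 of 7 members called higher, the background is 2.19% of all genes called higher at day 12 (3.09% in either direction), and 7.41% of genes had every KO array above every control array.

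At day 4 the same probe set read 754 and 1691 in KO clone 15 (replicates 2 and 1) and 670 and 1318 in KO clone 10, against 222 and 271 in control clone 15 and 297 and 342 in control clone 10. Again no KO array overlapped a control array, and the KO arrays fell into a lower pair, both of replicate 2, and a higher pair, both of replicate 1. The means were 1109 ± 483 in KO cells and 283 ± 49.98 in control cells (SD, n = 4 each), a log2 difference of 1.88 ± 0.27 (SE; 3.68-fold; limma adjusted p = 0.00464). Here 0.566% of all genes were called higher (0.627% in either direction) and 3.49% had all KO arrays above all control arrays. With the arrays of day 4 fitted alone the log2 difference was the same 1.88 and the limma adjusted p was 0.209.

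The other Igfbp3 probe set, 1458268_s_at, read 760, 621, 838 and 571 on the KO arrays of day 12 (clone 15 replicates 2 and 1, then clone 10 replicates 2 and 1), against 226, 219, 291 and 393 on the control arrays in the same order. At day 4 it read 660, 1111, 543 and 689 on the KO arrays, against 275, 359, 243 and 211 on the control arrays. KO arrays again stood above control arrays with no overlap at either day. In the fit over every probe set with 1 gene symbol, the log2 difference was 1.33 ± 0.26 at day 12 (SE; limma adjusted p = 0.025) and 1.44 ± 0.26 at day 4 (limma adjusted p = 0.0448), with backgrounds of 1.14% and 0.238% of probe sets called higher. The intensities of the 2 Igfbp3 probe sets correlated at r = 0.92 over the 16 arrays.

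**Figure D1:**
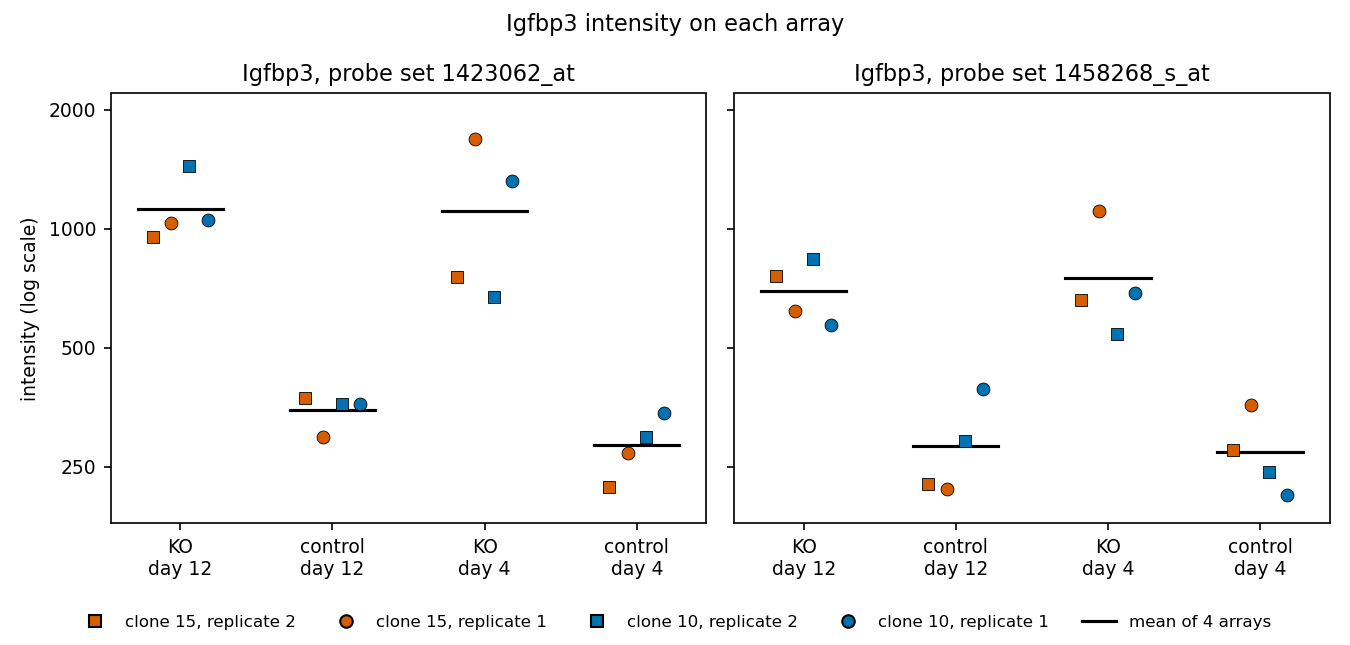
Intensity of the 2 Igfbp3 probe sets on each of the 16 arrays, on a log axis, with KO left of control at each day; colour marks the clone, shape the replicate number, and bars the mean of 4 arrays. For 1423062_at the KO arrays run between 670 and 1691 and the control arrays between 222 and 373, and at day 4 both KO squares (replicate 2) lie below both KO circles (replicate 1).

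Since no KO array overlapped a control array of its day, Igfbp3 was necessarily higher on the KO array of every pair. Within pairs of the same clone, day and replicate number it was higher by 2.55-fold to 3.99-fold at day 12. At day 4 it was higher by 2.25-fold to 6.23-fold. At day 12 the log2 KO difference was 1.58 in clone 15 and 1.77 in clone 10, and at day 4 it was 2.20 in clone 15 and 1.56 in clone 10 (SE 0.40 for each). The clones' KO differences did not differ beyond their error, with a log2 difference between clones of -0.20 ± 0.57 at day 12 and 0.64 ± 0.57 at day 4 (SE; limma adjusted p = 1 for both, and 0 of 18195 genes were called at either day). The unadjusted p was 0.738 at day 12 and 0.286 at day 4. Within a single clone, with 2 arrays a group, Igfbp3 did not pass the adjusted threshold in the fit that holds both clones (limma adjusted p between 0.0979 and 0.446), where 0.352% and 0.445% of genes passed in clone 15 and clone 10 at day 12, and 0.181% and 0.121% at day 4.

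The KO differences of the replicate sets were taken from 1 fit that holds both sets, with 2 arrays a group in each set. With either replicate number fitted alone, Igfbp3 did not pass the adjusted threshold at either day. In the fit of both, the replicate sets gave like KO differences for Igfbp3 at day 12, 1.67 in set 2 and 1.68 in set 1 on the log2 scale (limma adjusted p = 0.0121 and 0.012), where 2.79% and 2.56% of genes passed. At day 4 they gave 1.47 in set 2 and 2.29 in set 1 (limma adjusted p = 0.0461 and 0.0108), where 0.429% and 0.528% of genes passed. The gap at day 4 was -0.82 ± 0.32 (SE; unadjusted p = 0.0322, limma adjusted p = 0.93), so the sets were not shown to differ in the KO difference; 0 genes passed that test at day 4 and 0.00550% at day 12. Between days, the Igfbp3 KO difference changed by -0.21 on the log2 scale (day 12 minus day 4; limma adjusted p = 1), with 0 genes of 18195 called, and no member had an unadjusted p under 0.05.

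Some measures of other cells and an RNA control also differed between KO and control arrays, though not each of them at both days. The summed intensity of 35 fibroblast markers was 13416 to 14525 on KO arrays and 11251 to 13084 on control arrays at day 12, and 9884 to 14068 on KO arrays and 9052 to 11842 on control arrays at day 4. Of these 35 markers, Tgfbi (a secreted matrix protein) and Mfap5 (a microfibril protein) rose in KO cells at both days and the chemokine Cxcl12 fell at day 12. Those 2 of 35 called higher stand beside 2.19% of all genes at day 12 and 0.566% at day 4. The 1 of 35 called lower at day 12 stands beside 0.901% of all genes. The median log2 difference of the 35 was 0.24 at day 12 and 0.15 at day 4, beside 0.01 at either day over all genes. None of the 10 defining fibroblast markers passed the test between KO and control cells at either day, and their median log2 difference was 0.22 at day 12 and 0.06 at day 4. Their summed intensity overlapped at both days. It was 1552 to 2364 on KO arrays and 1556 to 1830 on control arrays at day 12. At day 4 it was 933 to 2155 on KO arrays and 967 to 1633 on control arrays. The log2 ratio of 3′ to 5′ transferrin receptor control probe sets, a measure of RNA integrity and labelling, was higher on the KO array in 4 of 4 pairs at day 4, by 0.20 ± 0.14 (SD), and in 1 of 4 pairs at day 12. The part of any of these in the Igfbp3 difference was not tested. In RNA from whole cultures, fewer cells of a type and less RNA per cell cannot be told apart.

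The remaining members did not pass the test between KO and control cells. Their log2 differences ran between -0.51 (Igfbp5) and 0.21 (Igfbp6) at day 12, and between -0.15 (Igfbp6) and 0.25 (Igfbp7) at day 4. Over all 7 members the median log2 difference was -0.09 at day 12 and 0.03 at day 4, beside 0.01 at either day over all genes. Only Igfbp3 had an unadjusted p under 0.05 at either day.

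**Figure D2:**
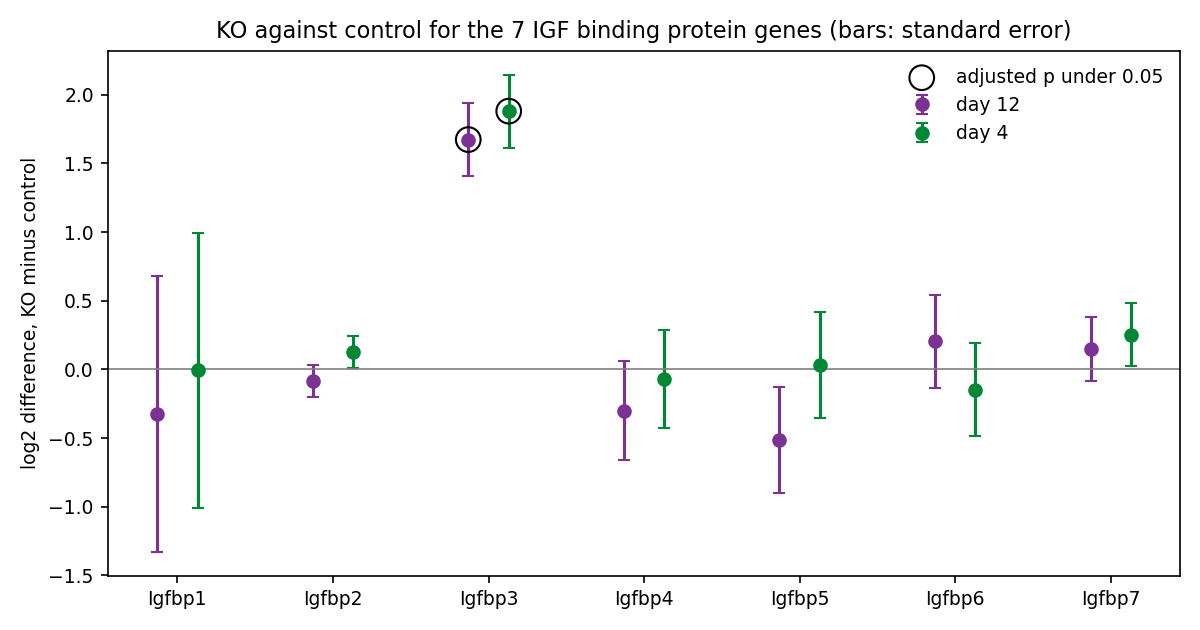
Log2 difference between KO and control cells (vertical axis) for each of the 7 genes at day 12 and day 4, with standard errors from the limma fit of 16 arrays; open rings mark an adjusted p under 0.05. Igfbp3 stands at 1.67 and 1.88, and the other 6 genes lie between -0.51 and 0.25 with bars that are widest for Igfbp1.

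Igfbp5, which like Igfbp3 can carry IGFs together with the acid-labile subunit and also binds matrix, was dim. Its probe set 1422313_a_at read 49.8 to 109 on KO arrays and 71.3 to 129 on control arrays at day 12, and 43.0 to 122 on KO arrays and 43.3 to 99.3 on control arrays at day 4. The groups overlapped at both days. The 95% confidence interval of the log2 difference ran from -1.35 to 0.32 at day 12 and from -0.80 to 0.87 at day 4. The other Igfbp5 probe set, 1452114_s_at, was under the floor on 9 of 16 arrays.

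Igfbp1 encodes a binding protein that the liver secretes under the control of insulin. Its single probe set read 5.14, 4.96, 2.74 and 2.44 on the KO arrays of day 12 (clone 15 replicates 2 and 1, then clone 10 replicates 2 and 1), against 4.47, 2.13, 2.45 and 18.01 on the control arrays. At day 4 it read 4.19, 6.52, 2.99 and 36.8 on the KO arrays, against 7.71, 45.1, 4.55 and 1.93 on the control arrays. Of the 16 values, 14 lay under the floor, and the 2 above it were on 1 KO array and 1 control array of day 4 from different clones. No order between groups is read from them.

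Igfbp2, a binding protein known from fetal tissue and serum, had the brightest probe set of the family, above 99.2% of probe sets, and varied least. It read 18878, 15943, 18878 and 15540 on the KO arrays of day 12 (clone 15 replicates 2 and 1, then clone 10 replicates 2 and 1), against 19537, 16688, 19731 and 17397 on the control arrays. At day 4 it read 15314, 17668, 16323 and 18678 on the KO arrays, against 15105, 17070, 14131 and 15979 on the control arrays. The highest of the 16 values was 1.40 times the lowest, and KO and control arrays overlapped at both days. The log2 difference was -0.09 ± 0.12 at day 12 and 0.13 ± 0.12 at day 4 (SE; limma adjusted p = 0.813 and 0.912), with 95% confidence intervals from -0.34 to 0.17 and from -0.13 to 0.38.

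Igfbp4 encodes a binding protein known mainly for holding IGFs back, and it is cut by the protease pappalysin. Its brightest probe set, 1437405_a_at, read 702, 831, 1207 and 672 on the KO arrays of day 12 (clone 15 replicates 2 and 1, then clone 10 replicates 2 and 1), against 1134, 831, 1636 and 706 on the control arrays. At day 4 it read 457, 819, 669 and 984 on the KO arrays, against 533, 1095, 478 and 1076 on the control arrays. At day 12 the highest value of either condition was that of clone 10 replicate 2, and at day 4 every replicate 1 array read higher than every replicate 2 array. The log2 KO difference was -0.30 at day 12 (95% confidence interval -1.08 to 0.48) and -0.07 at day 4 (-0.85 to 0.71). Of the other 5 Igfbp4 probe sets, 4 followed the brightest over the 16 arrays at r between 0.72 and 0.95, and 1421991_a_at was under the floor on 14 arrays.

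Igfbp6, whose protein prefers IGF2 to IGF1, read 97.5 to 114 on KO arrays and 71.7 to 111 on control arrays at day 12. At day 4 it read 47.3 to 86.4 on KO arrays and 34.4 to 140 on control arrays. The KO arrays of day 12 were the tightest of the 4 groups for Igfbp6, with an SD of 6.91 about a mean of 105. The groups overlapped at both days, and the log2 KO difference was 0.21 at day 12 and -0.15 at day 4.

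Igfbp7, the weak IGF binder that is secreted into matrix, read 406, 327, 453 and 315 by 1423584_at on the KO arrays of day 12 (clone 15 replicates 2 and 1, then clone 10 replicates 2 and 1), against 428, 269, 350 and 313 on the control arrays. At day 4 it read 212, 476, 325 and 366 on the KO arrays, against 267, 293, 241 and 316 on the control arrays. KO was higher in 3 of 4 pairs at each day, with overlapping groups and log2 differences of 0.15 at day 12 and 0.25 at day 4. The other Igfbp7 probe sets, 1423585_at and 1437804_at, were under the floor on 8 and 13 arrays and followed the first at r = -0.43 and -0.10.

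**Figure D3:**
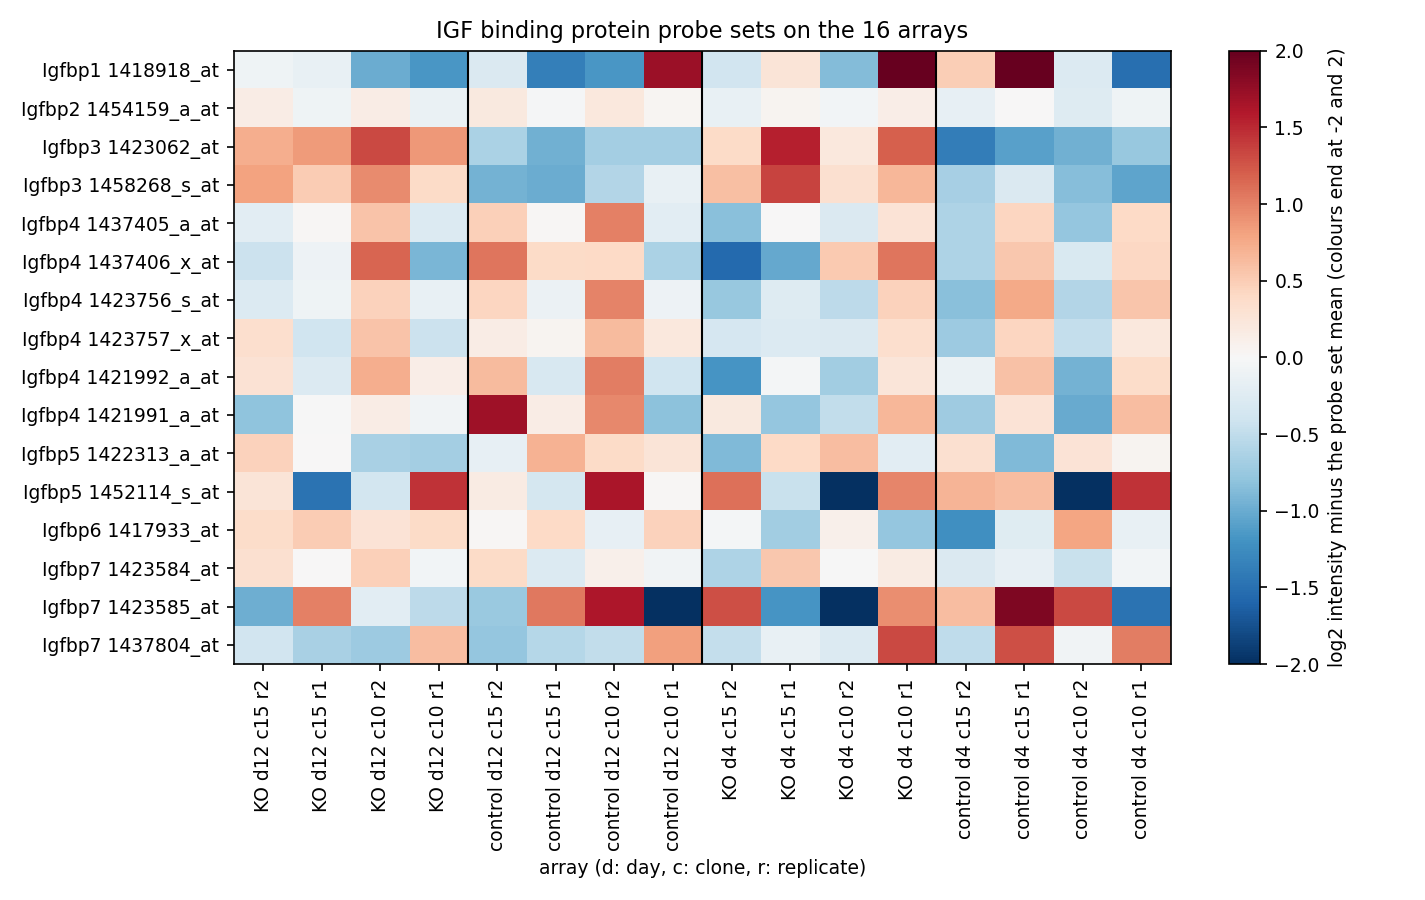
Each of the 16 IGFBP probe sets (rows) on each of the 16 arrays (columns; KO day 12, control day 12, KO day 4, control day 4), as log2 intensity minus the mean of that probe set, with colours ending at -2 and 2. Both Igfbp3 rows are above their mean on all 8 KO arrays and below it on all 8 control arrays, the Igfbp2 row is nearly blank, and the strongest colours elsewhere belong to probe sets that are under the floor on many arrays.

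The family showed no called difference between days. In KO cells, Igfbp6 was the member with the largest positive log2 difference between day 12 and day 4, 0.74 ± 0.34 (SE; limma adjusted p = 0.314), and the only one with an unadjusted p under 0.05. In control cells no member had an unadjusted p under 0.05, and 6 of 7 members had a positive sign, with a median log2 difference of 0.31 beside 0.02 over all genes. Igfbp3 differed between day 12 and day 4 by 0.10 in KO cells and 0.31 in control cells (limma adjusted p = 0.909 and 0.675). These 0 of 7 stand against 3.27% of all genes called in KO cells and 0.995% in control cells. Of 18 primitive endoderm markers, 17 were higher at day 12 than at day 4 in KO cells and 11 in control cells, with median log2 differences of 3.13 and 2.26.

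No member passed the test between clone 15 and clone 10 over the 4 groups, where 0.192% of genes were called. The log2 differences ran from -0.23 for Igfbp6 to 0.38 for the floor-level Igfbp1, and no member had an unadjusted p under 0.05. For Igfbp3 the difference was -0.13 ± 0.19 (SE; 95% confidence interval -0.54 to 0.27; limma adjusted p = 0.927).

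The replicate sets of day 4 separated the family more widely. Replicate set 2 was lower than set 1 in 4 of 7 members and higher in none, where 17.8% of all genes were called lower and 10.6% higher, and the members' median log2 difference was -0.47 beside -0.07 over all genes. Igfbp4 ran from 457 to 669 in set 2 and from 819 to 1095 in set 1, without overlap, a log2 difference of -0.90 ± 0.21 (SE; limma adjusted p = 0.00791). The sets did not overlap in 27.9% of all genes. Igfbp3 differed by -0.66 ± 0.19, Igfbp2 by -0.19 ± 0.06 and Igfbp7 by -0.47 ± 0.15 (SE; limma adjusted p = 0.0269, 0.0353 and 0.0454), each with overlapping sets.

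Leaving out any 1 of 7 of the 16 arrays reduced these 4 calls to 2 or 1. There was 1 call without KO day 4 clone 15 replicate 2, KO day 4 clone 15 replicate 1 or KO day 4 clone 10 replicate 1. There were 2 calls without KO day 4 clone 10 replicate 2, control day 12 clone 15 replicate 2, control day 4 clone 15 replicate 1 or control day 4 clone 10 replicate 2. Igfbp4 passed in all 16 fits that left out 1 array. Igfbp6, at 0.37 and not called with all arrays, was called higher in set 2 without control day 4 clone 15 replicate 2, at 0.85 (limma adjusted p = 0.00102). By its probe set of the highest variance, 1437406_x_at, Igfbp4 differed by -0.73 and did not pass (limma adjusted p = 0.43). By 1423585_at, which is mostly under the floor, the sign of the Igfbp7 difference turned, to 0.24.

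At day 12 the replicate sets differed in the other direction for Igfbp2, which read 18878 to 19731 in set 2 and 15540 to 17397 in set 1. That log2 difference of 0.23 ± 0.06 (SE; limma adjusted p = 0.0438) was the only 1 of 7 called, where 2.66% of genes were called higher and 3.83% lower and the sets did not overlap in 8.36%, and it did not pass in any of the 16 fits that left out 1 array. Of the Igfbp4 probe sets, 1421992_a_at passed in the fit over probe sets, at 0.88 ± 0.22 (SE; limma adjusted p = 0.0471; 2.83% of probe sets called higher), while the brightest Igfbp4 probe set differed by 0.57 (limma adjusted p = 0.136).

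Some fibroblast markers and some RNA controls also differed between the day 4 replicate sets. Col1a1 and Thy1 were lower in set 2 by log2 differences of -1.50 ± 0.15 and -1.36 ± 0.12 (SE; limma adjusted p = 9.35e-05 and 6.38e-05), and 3 of the 10 defining markers and 7 of all 35 were called lower, with 2 called higher. Those 7 and 2 of 35 stand beside 17.8% of all genes called lower and 10.6% called higher, so the share called lower was near that of all genes. The summed intensity of the 10 defining markers was 933 to 1363 in set 2 and 1543 to 2155 in set 1. Of 20 ES cell markers, 9 were called lower and 3 higher in set 2, and of 17 housekeeping genes, 4 lower and 5 higher, against the same shares of all genes. The log2 ratio of 3′ to 5′ pyruvate carboxylase control probe sets was 0.16 to 0.87 in set 2 and 1.27 to 1.84 in set 1. The part of these in the members' differences was not tested.

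**Figure D4:**
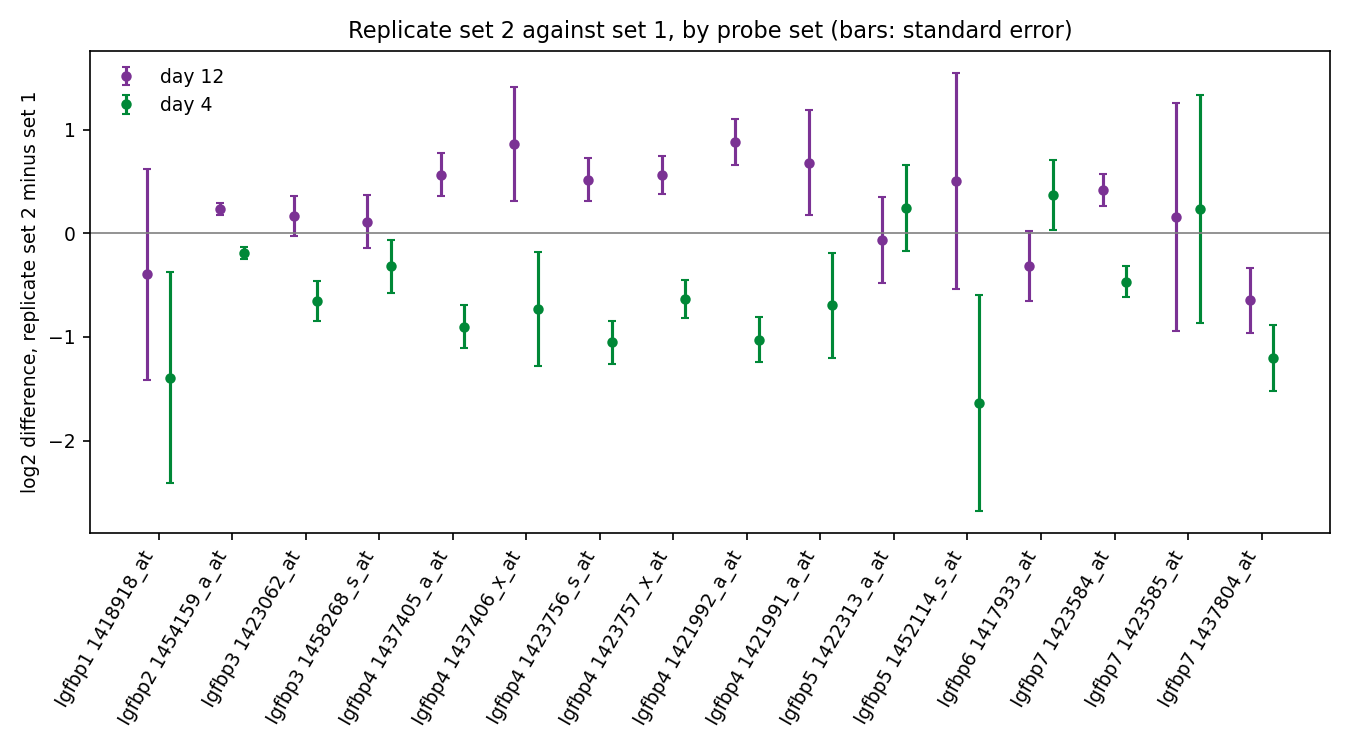
Log2 difference of replicate set 2 minus set 1 for each of the 16 probe sets at day 12 and day 4, with standard errors. At day 4 all Igfbp4 probe sets lie below 0, between -1.05 and -0.63, and at day 12 all lie above 0, while the widest bars belong to dim probe sets.

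Members were also set against summary scores of fibroblast and ES cell markers over the 16 arrays, which share groups, clones and replicate sets. A member was called feeder-like where its correlation with the fibroblast score was at least 0.7 and the larger, and ES-cell-like where that with the ES score was the larger. No minimum was set for the ES-cell-like side, so that name can fall on a weak or even negative correlation. Igfbp3 was placed as feeder-like, at r = 0.75 with the fibroblast score and 0.25 with the ES score. Igfbp4 (0.30 and 0.45) and Igfbp1 (-0.15 and 0.36) fell on the ES-cell-like side, which for Igfbp1 rests on values under the floor. Igfbp7 (0.66 and 0.36), Igfbp2 (0.42 and 0.38), Igfbp6 (0.33 and -0.40) and Igfbp5 (-0.02 and -0.20) were not placed.

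The separation was not firm. Against the 10 defining fibroblast markers alone, Igfbp3 had r = 0.52 and Igfbp4 r = 0.53, and neither was placed. By its other probe set, 1458268_s_at, Igfbp3 had r = 0.59 with the fibroblast score and 0.30 with the ES score, under the cut of 0.7. By 1437406_x_at, Igfbp4 had the larger r with the fibroblast score (0.31 and 0.17), while its other probe sets had the larger r with the ES score. In deviations from the means of each clone and group, Igfbp3 correlated at 0.80 with both scores. There the rule put Igfbp3 on the ES-cell-like side by a very small margin (0.8026 with the fibroblast score and 0.8031 with the ES score). Within the 8 arrays of day 12 its r was 0.93 with the fibroblast score and 0.04 with the ES score (feeder-like). Within the 8 arrays of day 4 it was 0.69 and 0.56 (not placed). Igfbp2, not placed over the 16 arrays, fell on the ES-cell-like side within day 12 (-0.15 with the fibroblast score and 0.54 with the ES score), within day 4 (0.69 and 0.82) and in the deviations (0.66 and 0.89). Igfbp7 was feeder-like within day 4 (0.75 and 0.74) and ES-cell-like in the deviations (0.74 and 0.75). The rule also put Igfbp5 on the ES-cell-like side within day 12, but both correlations were negative (-0.56 and -0.17), so no likeness is read from it. Since KO arrays hold all high Igfbp3 values, the KO difference is part of each correlation over 16 arrays. Among members, Igfbp2 varied with Igfbp7 (r = 0.78) and Igfbp4 (r = 0.76), and Igfbp3 with Igfbp7 (r = 0.55).

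Over the 16 arrays, the genes most like Igfbp3 among 9093 genes of at least median level were Usp17la (r = 0.97), Herc4 (r = 0.96) and AF067061 (r = 0.94). For Igfbp4 they were Adgrl1, Nrm and Capns1, at r between 0.90 and 0.91. For Igfbp2 they were Nt5dc2, Prpf4 and Neurl1a, at r between 0.88 and 0.93. For Igfbp7 they were Map2k3, Aebp1 and Gtf3a, at r between 0.88 and 0.89. The likeness was lower for the dim members, at most 0.84 for Igfbp5 (Syt11), 0.80 for Igfbp6 (Rab13) and 0.73 for Igfbp1 (Cep41).

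The ligands and receptors that IGFBPs act on were measured by 8 of 9 listed genes, of which 1 passed between KO and control cells at day 12 and 0 at day 4, beside 3.09% and 0.627% of all genes. That gene was Igf2, the fetal IGF. It read 1223 and 1793 in KO clone 15 (replicates 2 and 1) and 1437 and 1208 in KO clone 10 at day 12, against 505 and 512 in control clone 15 and 780 and 653 in control clone 10, with no overlap; 7.41% of all genes had every KO array above every control array at that day. The log2 difference of Igf2 was 1.21 ± 0.21 at day 12 (SE; limma adjusted p = 0.00722) and 0.16 ± 0.21 at day 4 (limma adjusted p = 0.961). Igf2 was also higher at day 12 than at day 4, by 2.36 in KO cells and 1.31 in control cells (limma adjusted p = 8.18e-05 and 0.0107), where 3.27% and 0.995% of all genes were called. Of 18 primitive endoderm markers, 3 passed as higher in KO cells at day 12 and 0 at day 4. Their summed intensity was 30494 to 48888 on KO arrays and 21245 to 32592 on control arrays at day 12, and 5390 to 8148 on KO arrays and 5150 to 8134 on control arrays at day 4. The median log2 difference of these markers between KO and control cells was 0.69 at day 12 and -0.03 at day 4, and their part in the differences of Igf2 and of the protease gene Htra1 was not tested.

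The median log2 difference of the 8 genes was 0.21 at day 12 and 0.17 at day 4. The IGF1 receptor gene Igf1r averaged 284 ± 129 in KO cells and 466 ± 264 in control cells at day 12 (SD, n = 4 each), a log2 difference of -0.64 (limma adjusted p = 0.3). Igf2r, which takes up IGF2 for degradation, averaged 808 ± 118 in KO cells and 696 ± 100.5 in control cells at day 12 (limma adjusted p = 0.564). At day 4 Igf2r averaged 782 ± 69.3 in KO cells and 582 ± 80.4 in control cells, a log2 difference of 0.43 (limma adjusted p = 0.35). Igf1, the other ligand, did not pass at either day. Of 16 measured adaptors and kinases that act below the receptors, 0 passed between KO and control cells at either day, while in the day 4 replicate sets 9 were lower and 1, Pdpk1, was higher in set 2, beside 17.8% and 10.6% of all genes.

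**Figure D5:**
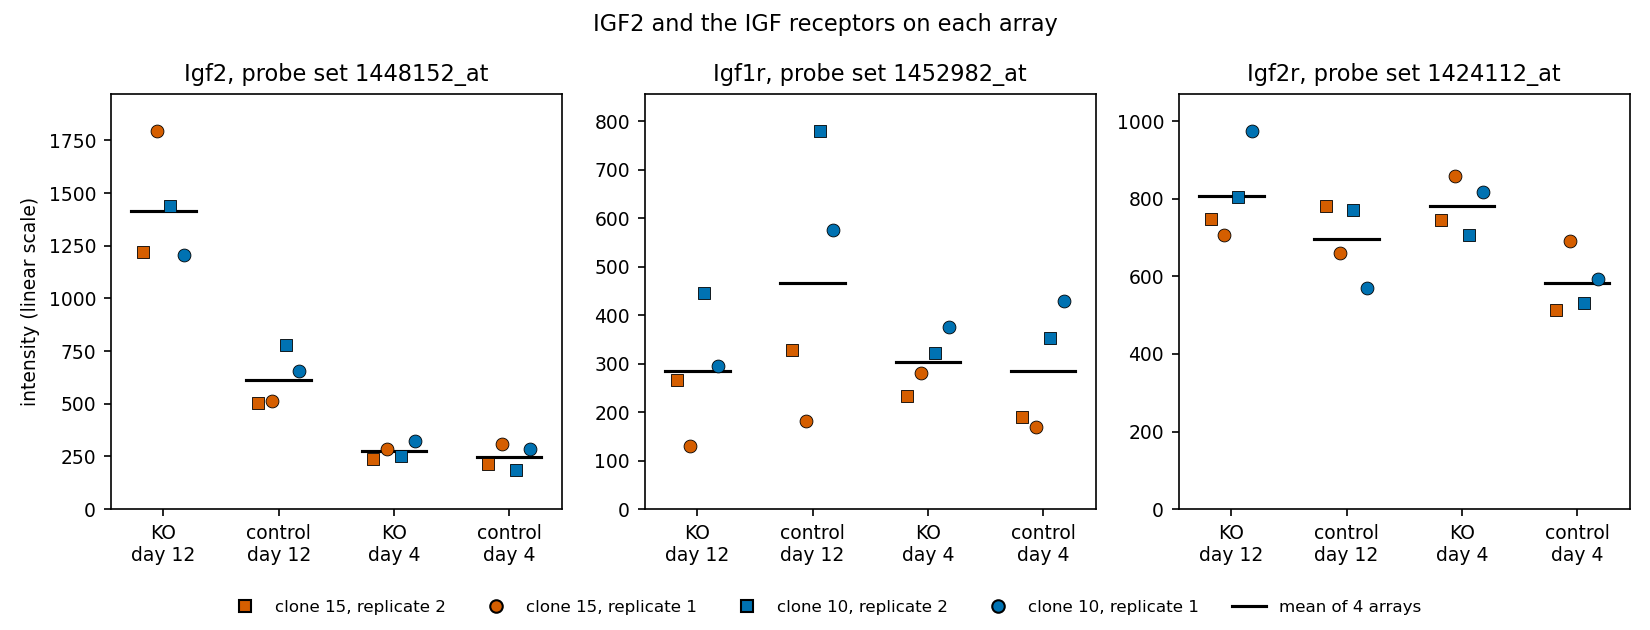
Intensity of Igf2, Igf1r and Igf2r on each array, on linear axes from 0 that differ between panels, with KO left of control at each day; colour marks the clone, shape the replicate number, and bars the mean of 4 arrays. The KO arrays of day 12 read 1208 to 1793 for Igf2, above the control arrays of day 12 at 505 to 780. The receptor groups overlap in every comparison except Igf2r at day 4, which was not called (limma adjusted p = 0.35). At that day 3.49% of all genes had every KO array above every control array.

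Among 13 proteases that cut IGFBPs and their inhibitors, 1 passed between KO and control cells at day 12 and 0 at day 4, beside 3.09% and 0.627% of all genes. Htra1, a secreted serine protease known to cut IGFBPs, averaged 3082 ± 356 in KO cells and 1348 ± 142 in control cells at day 12 (SD, n = 4 each). The log2 difference was 1.19 ± 0.18 at day 12 (SE; limma adjusted p = 0.00372) and 0.36 ± 0.18 at day 4 (limma adjusted p = 0.646). The median over the 13 was 0.16 at day 12 and 0.17 at day 4. Between days, Plat (tissue plasminogen activator) was higher at day 12 in KO cells by 1.59 and in control cells by 1.46, and Htra1 and Ctsd (cathepsin D) were called higher in KO cells. Those are 3 of 13 in KO cells and 1 of 13 in control cells, beside 3.27% and 0.995% of all genes called in either direction. In the replicate sets of day 4, 2 of 13 were lower and 2 higher in set 2, beside 17.8% and 10.6% of all genes, and the pappalysin inhibitors Stc1 and Stc2 moved in opposite directions, by 1.49 and -1.49.

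None of 10 IGFBP-related proteins, among them the matrix-associated Ccn genes, passed between KO and control cells. Limma gave 1 of the 10 an unadjusted p under 0.05 at each day. In the replicate sets of day 4, 2 of the 10 were called lower and 0 higher in set 2, beside 17.8% and 10.6% of all genes. The share called lower was thus near that of all genes. Ccn1 and Ccn2 were lower in set 2 by -1.56 and -0.90 on the log2 scale. Of 2 measured IGF2 mRNA-binding proteins, which bind transcripts of Igf2 and other genes, Igf2bp3 fell in KO cells at day 12 (0.901% of genes were called lower), to 615 ± 119, against 1462 ± 208 in control cells (SD, n = 4 each). Its log2 difference was -1.26 ± 0.20 at day 12 (SE; limma adjusted p = 0.00405) and -0.46 ± 0.20 at day 4 (limma adjusted p = 0.512). For reference, of 20 ES cell markers 3 passed as higher and 1 as lower in KO cells at day 12 and 1 as higher at day 4, 3 of 18 primitive endoderm markers were higher at day 12 and 0 at day 4, and 0 of 17 housekeeping genes passed at either day. Of all genes, 2.19% were called higher and 0.901% lower at day 12, and 0.566% higher at day 4.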

How the data were processed

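RNA of 16 samples was measured on Affymetrix arrays whose value table holds 45101 probe sets. The submitters' processing notes name Affymetrix Expression Console and RMA, without versions. The deposited intensity values are linear, between 0.144 and 52570, and all 16 columns hold the same sorted values, so the arrays had been normalized to 1 distribution before deposit; depth does not apply to arrays, and 4 arrays a group limit the precision. Probe sets were named from the platform annotation: 34945 have 1 symbol, 932 several and 9160 none, and 64 control probe sets stayed out. All 7 members matched a RefSeq gene by Entrez ID and symbol.

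From the deposited values the log2 of the intensity was taken with no offset. Each of 18193 genes was read by its probe set of the highest mean, with 2 Rybp entries added. Models of group and clone over 16 arrays (replicate number within day added for the replicate sets) were fitted with limma 3.58.1 in R 4.3.3, with Benjamini-Hochberg adjustment over all 18195 entries and a threshold of 0.05. The script was tested on simulated data. All 7 members are named; other genes are named where a list's member passed or by the 3 highest correlations with a member, and Igf1, Igf1r, Igf2r and Dcn were named outside that rule, after their values were seen. The members, the 11 gene lists and the tests were chosen with earlier results of these data known, so a pattern known from those results, such as the higher Igfbp3 of KO cells, has no independent support here. Alternatives were other probe sets, floors, offsets, scaling and subsets of arrays.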

Additional observations from a re-analysis of the deposited data

Results flagged for a closer look

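Igfbp1 stood out because 1 array lay far from the other 3 in 3 of its 4 groups. In KO cells at day 4 the values were 2.99, 4.19, 6.52 and 36.8, and the gap of the highest to its neighbour was 0.896 of the range. In control cells at day 4 the values were 1.93, 4.55, 7.71 and 45.1, with a gap of 0.866 of the range, and in control cells at day 12 they were 2.13, 2.45, 4.47 and 18.01, with a gap of 0.852. For normally distributed values, chance gives a gap past the 95% critical value in about 1 group in 20, and 28 groups were examined. The gaps were taken on linear intensities. On the log2 scale used for the tests, each of these gaps is a smaller part of the range. All but 2 of the 16 Igfbp1 values lie under the floor of 28.3.

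Igfbp2 was lower on the KO array in 4 of 4 pairs at day 12 and higher in 4 of 4 pairs at day 4. The share of all genes with such a pattern is not given here, so the pattern is not read as particular to Igfbp2. These pairs go by clone, day and replicate number, and the numbers were not taken to pair the samples. At day 4 the paired log2 differences were 0.02 and 0.05 in clone 15 (replicates 2 and 1) and 0.21 and 0.23 in clone 10. The medians of the paired log2 differences differ by -0.194 (day 12 minus day 4). In the limma fit the difference of the KO effect between days was -0.21, with an adjusted p of 1, and 0 of 18195 genes passed that test.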

How the results depend on the processing

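The call of Igfbp3 between KO and control cells held in each of the 16 fits that left out 1 array. In those fits 1 of 7 members was called at either day (lowest and highest 1). The call also held with other floors, offsets and scaling, with every probe set tested, and with the probe set of the highest variance. Over 28 settings, all of which read Igfbp3 by its brightest probe set, its log2 difference stayed between 1.56 and 1.77 at day 12. There 24 settings passed the threshold and the adjusted p ran from 0.000787 to 0.498. At day 4 the difference stayed between 1.47 and 2.29, 23 settings passed, and the adjusted p ran from 0.000736 to 0.561. The other Igfbp3 probe set, 1458268_s_at, lay below both ranges, at 1.33 at day 12 and 1.44 at day 4. It passed in the fit over every probe set (limma adjusted p = 0.025 and 0.0448). The settings without a call, 0 of 7 members, use fewer arrays: clone 15 alone, clone 10 alone, replicate number 2 alone and replicate number 1 alone at either day, the last pair chosen after seeing the data, and the arrays of day 4 alone at day 4. For replicate set 2 against set 1 at day 4, 4 members called became 2 with every probe set tested, 1 with the probe set of the highest variance, 1 with day 4 alone, 0 in either clone alone, and 1 to 4 with 1 array left out; Igfbp7 reversed to 0.24 with its probe set of the highest variance. At day 12 the single call became 0 with every probe set tested, the probe set of the highest variance, an offset of 16, housekeeping scaling, day 12 alone, either clone alone and in every fit without 1 array, and 3 with genes of at least median level. The cause of these changes was not tested beyond the smaller number of arrays or the other set of genes tested. No member was called between days or clones in any of the fits without 1 array. Housekeeping scaling moved the median of all genes between the day 4 replicate sets to -0.33, against -0.07, and the calls there to 608 higher and 5380 lower, against 1931 and 3247; between days in control cells it moved the median to -0.10, against 0.02, and the calls to 59 higher and 67 lower, against 119 and 62. It gave fewer calls between KO and control cells, 264 higher and 64 lower at day 12 and 51 and 2 at day 4. Of 402 values of members that were not called, 31 changed sign under some setting. With the 8 pairs of the same clone, day and number as a replicate block, 1 of 7 members passed at either day, Igfbp3 at adjusted p = 0.00844 at day 12 and 0.0189 at day 4, and all genes gave 852 higher and 627 lower calls at day 12, against 399 and 164, and 134 and 44 at day 4, against 103 and 11. The numbers were not taken to pair the samples, because deviations of paired arrays correlated between -0.077 and 0.061; as a hint from the data, each of the 8 KO arrays correlated best with a control array of its own number within its day. No block of pairs could be fitted between replicate sets, and the clone contrast could not be fitted within 1 clone.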
